A study of Mus musculus with 16 samples.

Results

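The 87 genes described here encode the proteins of the cytosolic ribosome and their close paralogs. They were chosen by symbol from the 24015 rows of a table of normalized read counts. The rule took symbols starting with Rps or Rpl and a digit, together with Rpsa, Rplp0, Rplp1 and Rplp2. Of 103 rows that matched, 10 encode S6 kinases (Rps6k) and 6 are named as pseudogenes (-ps), and these were left out. The list holds 34 genes of the small subunit and 51 of the large subunit, paralogs included. The other 2 genes, Rps19bp1 and Rpl7l1, have names of the family but are not core subunits, since Rps19bp1 encodes a protein that binds Rps19 and Rpl7l1 a protein related to Rpl7 that acts in nucleolar ribosome assembly.

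RNA was measured in microglia, the resident macrophages of the brain, sorted as live CD11b+CD45lo cells from the hippocampus of mice of 3 months (young, n = 6 samples) and 20 months (aged, n = 6 samples). No treatment or genetic change is named for either age. The strain is labelled C57BL/6 for all samples except aged 5 (C57BL/7) and aged 6 (C57BL/8 and C57BL/9 for its pair of libraries), which was not settled. Nothing in the labels tells how many mice went into a sample. The p-values therefore describe only the spread among these samples, part of which may be technical.

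A ribosome is built from a small subunit, which reads the mRNA, and a large subunit, which joins amino acids, and each cytosolic ribosomal protein is normally present as a single copy per ribosome, with the acidic stalk proteins as the exception. The mRNAs of ribosomal proteins are short and abundant, and many begin at the cap with an uninterrupted run of pyrimidines, the 5′ terminal oligopyrimidine (TOP) motif, through which mTOR and Larp1 control their translation. Such control acts on translation, while the values here are RNA levels. Most ribosomal protein genes also have processed pseudogenes, copies of the mRNA inserted elsewhere in the genome.

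The start sites of 66 of the 87 genes were found in RefSeq (GRCm38.p6). A window of 24 bases around the start, 12 on each side, is shown for 6 genes with a long pyrimidine run and for 2 abundant genes with a short run, on the strand of the gene. Capitals mark the longest run of C and T that overlaps the 5 bases on either side of the start. For Rps27l and Rplp0 the marked run ends before the annotated start, so it lies outside the mRNA as annotated. The windows lie at chr17:33955654-33955677 (Rps18, minus strand), chr4:86857356-86857379 (Rps6, minus), chr2:180257367-180257390 (Rps21, plus), chr7:141447639-141447662 (Rplp2, plus), chr11:114668568-114668591 (Rpl38, plus), chr9:66946074-66946097 (Rps27l, plus), chr5:115559455-115559478 (Rplp0, plus) and chr8:123102338-123102361 (Rpl13, plus).
Rps18: gtcacttccgCTCTCTCTTCCaca
Rps6: cggaagtcgggCCTCTTTTTCgtg
Rps21: cgaggacccgCCCTCCTgcccaat
Rplp2: gtcagcgTCTTCCTTTCgccgccg
Rpl38: ggaagcctcgTTCTTTCCCCgttc
Rps27l: CTCCTCCCCgccgcctctatcccg
Rplp0: ttcgggTTTCgaggaccgcctggt
Rpl13: cctttcgcctgaTTTTgattggcg

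A run of at least 6 pyrimidines was found at 30 of the 66 starts (45.45%), against 3262 of 16584 starts of other genes (19.67%). Runs that ended before the annotated start, as for Rps27l, were counted too. The letters CCGGAAG, searched on both strands of the longer promoter window (250 bases before to 50 after the start), were found for 24 of the 66 genes (36.36%) and for 11.84% of the other genes. A match describes the letters only, and a RefSeq start need not be the start used in microglia.

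Levels are given first. To compare genes, the mean normalized count was divided by the coding length in kilobases (GENCODE M21, GRCm38), for the 86 genes with a coding sequence there. Rpl41, whose coding sequence of 75 bases is among the shortest known in mammals, had the highest level per kilobase of coding sequence, 8426 ± 2409 in young and 10487 ± 3402 in aged samples (SD, n = 6 each). Its place rests on that short coding sequence within a transcript of 437 bases. Other genes high on this scale were Rpl7l1 (5460 over all samples), Rps9 (4540) and Rpl13 (4471). Rps9 is a small-subunit protein at the entry of the mRNA path, and Rpl13 is a large-subunit protein. At the other end, Rpl34, a large-subunit protein, reached 55.1 per kilobase and was the lowest gene that could be tested. Whether its low value comes from the cells or from the counting was not tested.

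The other 7 genes of the 87 were too low to test, that is, fewer than 6 samples reached 10 normalized counts. Rpl26, Rpl10l and Rps27rt are listed at 0 in all 12 samples. Rpl3l, a paralog of Rpl3 known from skeletal and heart muscle, stayed between 0 and 2.79 normalized counts. Rpl30 stayed between 1.10 and 10.1, Rps27 between 1.16 and 15, and Rpl39l, a paralog of Rpl39 known from the testis, between 0 and 14.8. Rpl10l is likewise known as a testis gene. Rpl26, Rpl30 and Rps27, in contrast, encode proteins of every ribosome, so their near-zero values are values of the deposited table and cannot be read as levels in the cells.

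Sequence copies bear on this. Of the 87 genes, 75 shared at least 1 stretch of 100 bases of exon with an annotated pseudogene, and 38 shared more than 50% of their 100-base stretches with another gene. The second count includes genes that overlap at the same place in the genome, and 14 of the 87 had such exon overlap. Rps27 (chr3:90212522-90213651, minus strand) shared 98.4%. Its coding sequence is identical over all 252 bases to that of Rps27rt (chr9:114982366-114982739, minus strand), a copy with a single exon. The first 60 coding bases of both are shown because reads from them fit both genes.
Rps27 and Rps27rt: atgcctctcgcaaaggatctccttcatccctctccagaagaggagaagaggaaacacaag

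Rpl26 (chr11:68901583-68906989, plus strand) shared 36.8% of its stretches and Rpl30 (chr15:34440505-34443640, minus strand) 53.5%, and 34.7% of the exon bases of Rpl30 overlap D730044K07Rik. Sharing alone did not separate the low genes. Rpl10, with 91.6% shared and 0% exon overlap, averaged 1556 ± 161 normalized counts in young samples, and Rpl5, with 91.1%, averaged 685 ± 162. For Rpl5, 46.6% of the exon bases overlap Fam69a at the same place, so part of its sharing need not come from copies elsewhere. Whether the authors' counting dropped or split reads at such copies was not tested.

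**Figure D1:**
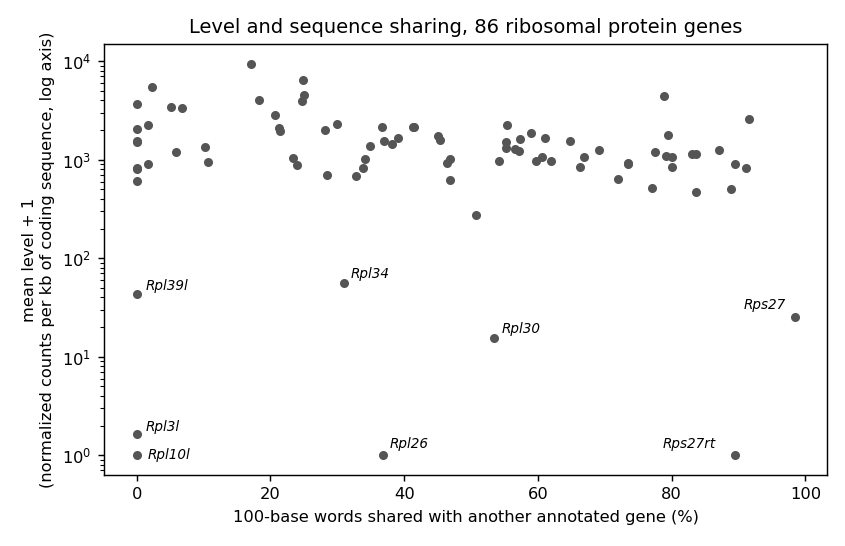
Mean level of each of 86 ribosomal protein genes plus 1 (normalized counts per kilobase of coding sequence, log axis) against the share of its 100-base exon stretches found in another annotated gene. Genes that overlap at the same place count as other genes. The 8 named genes lie below 100 per kilobase, at shares from 0 to 98.4%, while Rpl10, with 91.6% shared, reaches a high level.

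Summed over all members, ribosomal protein genes took 2080, 2133, 2661, 2966, 3188 and 2257 CPM (normalized counts scaled to the library total) in young samples 1 to 6, and 3058, 3740, 2622, 2865, 1754 and 3247 in aged samples 1 to 6. The mean was 2548 ± 463 in young and 2881 ± 669 in aged samples (SD, n = 6 each), or 0.175 to 0.374% of all normalized counts. This sum includes members such as Rpl26, Rpl30 and Rps27, whose near-zero values cannot be read as levels. It too is a value of the deposited table and need not be the share in the cells. Whether counting at sequence copies lowered it was not tested. The ages overlapped, and both the lowest sample (aged 5) and the highest (aged 2) were aged. The gap between these 2 samples of the same age was therefore wider than that between the means of the ages.

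No member passed the test between ages. Of the 80 genes tested, 0 were called higher and 0 lower at 20 months (limma on log2 of the normalized count plus 1, Benjamini-Hochberg adjusted p under 0.05 over 11579 genes), where 1.27% of all tested genes were called higher and 0.458% lower. At an unadjusted p under 0.05, 0 of the 80 passed, against 10.8% of all tested genes. No member had samples of the ages that did not overlap (1.87% of all tested genes). edgeR's quasi-likelihood test and DESeq2, run on reads recovered from the 8 samples with a single library, likewise called 0 members and left 0 at an unadjusted p under 0.05. Of the 11219 genes in those fits, 9.50% (edgeR) and 10.1% (DESeq2) had an unadjusted p under 0.05. The share of them called is not given here.

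The differences lay mostly on 1 side of 0. The log2 difference, aged minus young, was above 0 for 75 of the 80 members (50.5% of all tested genes), with a median of 0.18 against 0.0016 over all tested genes. The members do not count as separate replicates of this shift, because they moved together from sample to sample. In each sample, the median deviation of members from their own 12-sample mean was taken, and its SD within an age was 0.38 on the log2 scale, larger than the median difference between ages. The median standard error of a member's difference was 0.19.

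**Figure D2:**
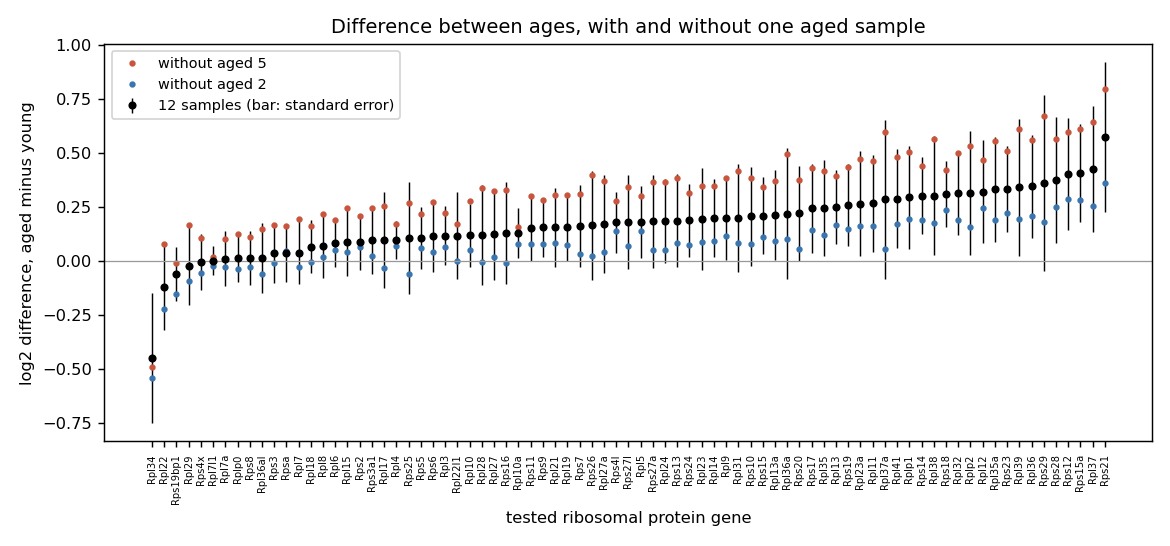
Log2 difference (aged minus young) of 79 of the 80 tested ribosomal protein genes, ordered by size, with its standard error (black), and the same without aged 5 (red) or without aged 2 (blue). Most black points lie between 0 and 0.5, and nearly every gene moves up without aged 5 and down without aged 2.

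The shift depended on which aged sample was kept. Without aged 5, 44 of the 80 members had an unadjusted p under 0.05, all of them higher at 20 months, where 6.62% of all tested genes did so in that direction and 12.6% in either. Still 0 were called (1.16% of all tested genes were called higher), the smallest adjusted p of a member was 0.0927 (limma, Rpl32), and the median rose to 0.34. Without aged 2, 0 members had an unadjusted p under 0.05, the median was 0.077 and 62 of 80 were above 0. Without both samples whose strain labels differ, aged 5 and aged 6, 25 members had an unadjusted p under 0.05, all higher (6.86% of all tested genes in that direction, 13.4% in either). Again 0 were called, against 1.17% of all tested genes called higher, and the median was 0.31.

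Among small-subunit genes, 31 of 32 tested lay above 0, with a median of 0.18. Rps18, which lies at the head of the small subunit near the tRNAs, had the smallest p of all members. Its normalized counts ran from 503 through a median of 653 to 845 in young samples and from 537 through 822 to 1026 in aged samples. The ages overlapped widely, with a log2 difference of 0.31 ± 0.15 (SE; limma adjusted p = 0.487). Rps21, a small-subunit protein and the member with the largest difference, had 44.2 to 193 in young samples (median 118) and 73.9 to 340 in aged samples (median 158). Its log2 difference was 0.57 ± 0.35 (limma adjusted p = 0.645), and aged 2 alone lay above all young samples by a wide margin.

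Rps15a had 169 to 315 normalized counts in young samples (median 225) and 146 to 462 in aged samples (median 332), a log2 difference of 0.41 ± 0.23 (limma adjusted p = 0.579). Aged 5 was the lowest of the 12 samples and aged 2 the highest. Rps12 (0.40 ± 0.26) and Rps28 (0.38 ± 0.29), the latter at the mRNA exit, had differences of like size, with limma adjusted p of 0.674 and 0.763. Rps14, which lies at the platform of the small subunit and whose loss is known from a human bone marrow failure with a chromosome deletion, had 832 to 1444 in young samples (median 1134) and 847 to 2019 in aged samples (median 1448; limma adjusted p = 0.6249). Rps4x, an X-linked gene, was the only small-subunit gene tested with a difference below 0 (-0.005 ± 0.13), which is far smaller than its error.

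Small-subunit proteins linked to signalling showed the same overlap. Rps6, the substrate of S6 kinase, had 666 to 964 normalized counts in young samples (median 807) and 504 to 1134 in aged samples (median 959), a log2 difference of 0.12 ± 0.17 (limma adjusted p = 0.893). Rps25, used by some viral RNAs for ribosome entry, spread over 473 to 1259 in young samples (median 694) and 444 to 1400 in aged samples (median 783). Its log2 difference of 0.11 ± 0.26 was smaller than its error. The 6 genes of the decoding site and mRNA path had a median difference of 0.19, and 0 passed (1.27% of all tested genes were called higher and 0.458% lower).

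Among large-subunit genes, 43 of 46 tested lay above 0, also with a median of 0.18. Rpl37 had the largest difference, with 255 to 756 normalized counts in young samples (median 464) and 279 to 1086 in aged samples (median 657), a log2 difference of 0.43 ± 0.29 (limma adjusted p = 0.716). Rpl34 lay at the other extreme, at 17.3 to 28.0 in young samples (median 21.8) and 10.98 to 22.1 in aged samples (median 17.1). Its log2 difference of -0.45 ± 0.30 had a limma adjusted p of 0.7003, and it rests on few counts. Rpl22 (-0.12 ± 0.20), which binds small viral and telomerase RNAs, and Rpl29 (-0.02 ± 0.18) were the other large-subunit genes below 0, and Rps19bp1, outside the subunits, was at -0.06 ± 0.13.

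The stalk recruits elongation factors to the large subunit. Its base, Rplp0, had 3329 to 4148 normalized counts in young samples (median 3915) and 2606 to 4530 in aged samples (median 4022). Aged 5 was the lowest sample and aged 2 the highest, and the log2 difference was 0.01 ± 0.11 (limma adjusted p = 0.983). Rplp1 ran from 469 to 1041 in young and from 402 to 1178 in aged samples, with medians of 702 and 965. Rplp2 ran from 263 to 777 and from 277 to 1021, with medians of 516 and 675. The differences of Rplp1 (0.30 ± 0.24) and Rplp2 (0.32 ± 0.29) were about as large as their errors.

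Rpl5 and Rpl11 carry the 5S RNA and, when assembly fails, hold back Mdm2, the ligase that degrades p53. Rpl5 had medians of 655 and 849 normalized counts in young and aged samples, within 516 to 926 and 499 to 941. Rpl11 had medians of 462 and 627, within 295 to 591 and 274 to 782. Rpl23 (log2 difference 0.20 ± 0.24), another Mdm2 binder, overlapped between the ages in the same way, as did Rps7 (0.16 ± 0.19) and Rps27l (0.18 ± 0.22). The 5 tested genes of this list of 7 had a median of 0.18. Rpl13a, which is known to join a complex that silences inflammatory mRNAs in myeloid cells, had 548 to 1146 in young and 473 to 1249 in aged samples. Rpl38, known for its part in the translation of Hox mRNAs, had 115 to 244 and 81.1 to 316, and Rpl10, which is known to join the large subunit late in assembly, had 1396 to 1800 and 969 to 2114.

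The 7 tested genes of the peptide exit tunnel had a median log2 difference of 0.20, and 0 passed. The 18 tested of 20 genes known from Diamond-Blackfan anaemia, an inherited failure of red cell production, had a median of 0.20 with all 18 above 0, and 0 passed. Of all tested genes, 1.27% were called higher and 0.458% lower, so 0 in lists this short lies near those shares. Fau, which encodes Rps30 fused to a ubiquitin-like sequence, averaged 731 ± 237 in young and 925 ± 281 normalized counts in aged samples (limma adjusted p = 0.718). Rack1, listed as Gnb2l1 and a scaffold on the small subunit, had 1414 ± 110 and 1411 ± 174.

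**Figure D3:**
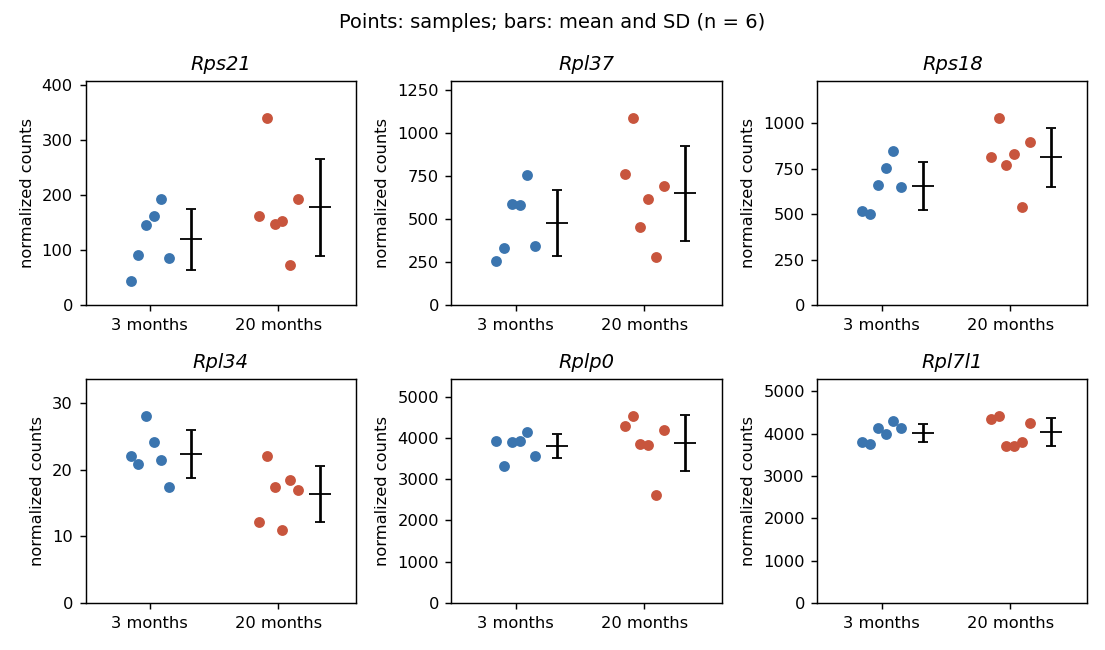
Normalized counts of 6 ribosomal protein genes in each sample at 3 and 20 months (points), with the mean and SD (n = 6 per age, axes from 0). The ages overlap for all 6, and Rpl7l1 spreads least relative to its mean.

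These genes moved together from sample to sample within each age. In aged 5, 0 of the 80 tested members were above their own 12-sample mean, and in aged 2, 79 were. In young 1, 2 and 6 only 6, 1 and 3 were above, and in young 4 and 5, 75 and 79. Aged 1 and aged 6 had 75 and 79 above, aged 4 had 66, and young 3 and aged 3 had 51 and 32. Of the other tested genes, 50.7 to 54.4% were above their mean in every sample. The normalization centres the typical gene of each sample, so this share is largely fixed by it. Whether other sets of genes moved together as strongly was not tested. Aged 2 was the highest of the 12 samples for 66 members, and aged 5 the lowest for 64.

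The median member deviated by 0.62 in aged 2 and by -0.73 in aged 5 on the log2 scale. These 2 samples had almost the same depth, 26.1 M and 26.3 M reads. In young samples with a single library, the summed CPM of members rose with depth. Young 1 had 11.4 M reads (2080 CPM), young 6 23.4 M (2257), young 3 41.4 M (2661) and young 5 47.3 M (3188). Aged samples did not keep that order, with 24.2 M in aged 4 (2865 CPM), then aged 2 (3740), aged 5 (1754) and 31.6 M in aged 1 (3058). The part of depth in the swing was not tested. Both subunits took part in the low values of aged 5, with medians of -0.71 for the small and -0.74 for the large subunit. The 3 genes counted for ubiquitin fusions and Rack1 deviated about as widely as the members. Their medians were 0.71 in aged 2, with 3 above their mean, and -0.71 in aged 5, with 0 above. The lists of other ribosome-related genes given next deviated less in aged 2 and aged 5. The 37 tested initiation factors had medians of 0.04 in aged 2 and -0.04 in aged 5, the 50 assembly factors 0.03 and -0.01, and the 17 genes of mTOR and TOP control 0.097 and 0.12. Lower values in aged 5 were found for the 12 elongation and release genes (0.10 in aged 2 and -0.29 in aged 5, with 3 of 12 above their mean in aged 5) and the 12 genes of the ribosomal stress checkpoint (-0.05 and -0.30, with 4 of 12 above).

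**Figure D4:**
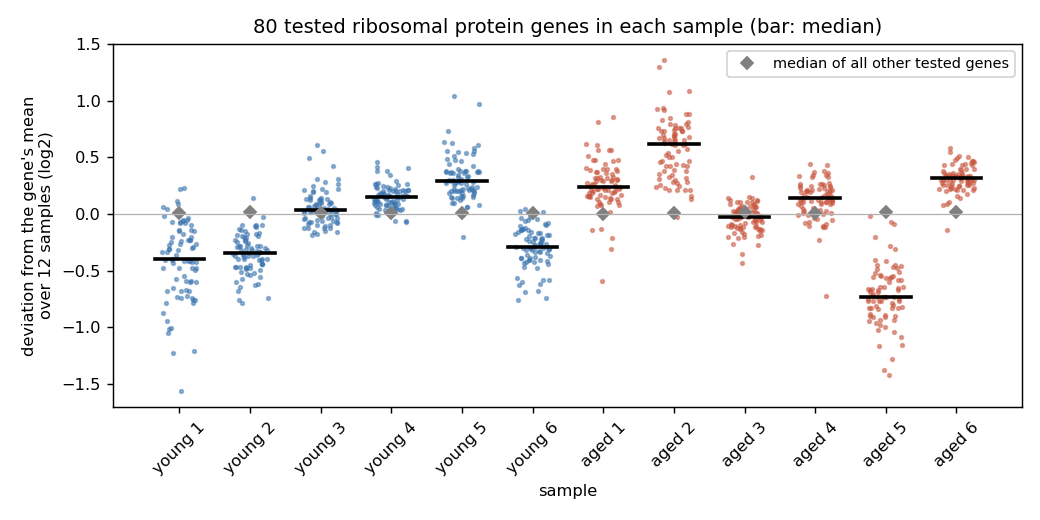
Deviation of each of the 80 tested ribosomal protein genes from its own mean over 12 samples (log2), by sample (blue young, red aged), with the median of the members (bar) and of all other tested genes (grey diamond). In aged 5 all 80 points lie below 0, in aged 2 all but 1 lie above, and the grey diamonds stay near 0, where the normalization largely holds them.

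The swing was wider in members with less than 600 coding bases than in longer ones. The 9 tested members with less than 300 coding bases had median deviations of 0.92 in aged 2, -0.88 in aged 5 and -0.94 in young 1. The 47 members of 300 to below 600 bases had 0.67, -0.77 and -0.42, and the 21 members of 600 to below 1000 bases 0.29, -0.59 and -0.09. The median SD within an age fell from 0.64 through 0.44 to 0.29 across these classes, and the median age difference from 0.34 through 0.20 to 0.089. The 2 members of 1000 to below 1500 bases had deviations of 0.27, -0.39 and -0.28 in the same 3 samples and a median age difference of 0.11, so the order by length did not extend to them in young 1 or in the age difference. Rpl7l1, at 738 coding bases, had an SD within an age of 0.10, the lowest of all tested members.

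Rps29, a small zinc-binding protein of the small subunit, had the widest spread within an age (SD 0.91), and was named after its values were seen. It had 241, 327, 863, 585, 1167 and 334 normalized counts in young samples 1 to 6 and 1025, 1204, 420, 767, 218 and 808 in aged samples 1 to 6. Low and high samples occur at both ages. At the long end Rpl4, which lines the exit tunnel and was also chosen after its values were seen, had 3809 to 4616 in young and 3471 to 4978 in aged samples, an SD within an age of 0.16.

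Short genes outside the family moved in the same direction but less. The 192 other tested genes with less than 300 coding bases had median deviations of 0.32 in aged 2, -0.38 in aged 5 and -0.20 in young 1, and the 1098 genes of 300 to below 600 bases 0.099, -0.22 and -0.08. Genes of 1000 to below 1500 bases stayed within 0.05 of 0 in all 12 samples. Samples differed again among the 705 genes of 4000 bases and more, in another order, with medians of 0.21 in aged 5, 0.18 in aged 2, -0.20 in young 3 and -0.27 in aged 6. In an alternative fit chosen after seeing the data, the trend of all genes with coding length was removed from each sample. There, 3 members had an unadjusted p under 0.05, against 11.9% of all tested genes in either direction. In that fit 0 members were called and the median was 0.16.

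**Figure D5:**
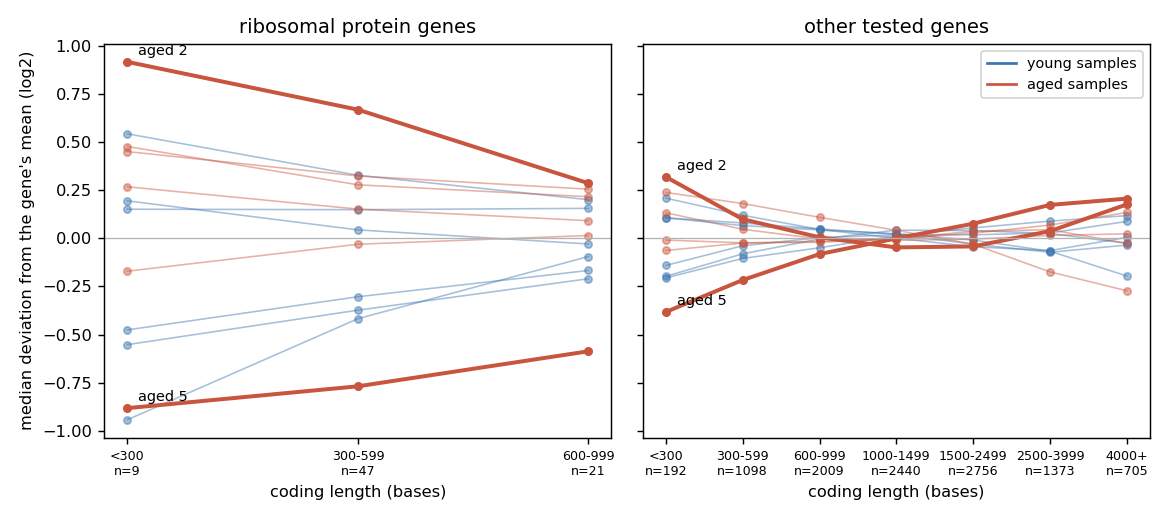
Median deviation from the gene's 12-sample mean (log2) in each sample (blue young, red aged) for classes of coding length, for ribosomal protein genes (left, classes of more than 2 genes) and other tested genes (right). Samples fan out at short lengths in both panels, more widely for the ribosomal protein genes. Among the ribosomal protein genes aged 2 is at the top of each class, and among the other genes it is so below 300 bases, while aged 6 is at the top from 300 to below 1000 bases.

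Markers of other cells were set beside the extreme samples. The summed microglia markers (8 genes, P2ry12, Tmem119 and Cx3cr1 among them) ran from 63740 to 69450 CPM in young and from 58460 to 63700 in aged samples. Choroid plexus markers (7 genes) were highest in aged 5 (130.9), followed by aged 2 (88.65), and border macrophage markers (6 genes) were highest in aged 2 (25.55), followed by aged 5 (21.27). The microglia markers were lowest in aged 2 (58460) and aged 5 (58470). Astrocyte markers (7 genes) ran from 207.5 to 282.1 and oligodendrocyte markers (7 genes) from 220.6 to 263.6, both highest in aged 5. Aged 2 was at 213.7 for the astrocyte and 240.5 for the oligodendrocyte markers. Endothelial markers ran from 46.8 to 80.6 and B cell markers from 27.5 to 45.8, neutrophil markers were at most 11.7 (aged 4), and monocyte markers ran from 2.37 to 4.99 in young and from 4.96 to 6.24 in aged samples. The part of these other cells in the result was not tested. Neuron, T cell and red cell markers stayed at or below 4.15 in all samples, and Tek and 4 globin genes are listed at 0. In sorted bulk samples, fewer cells of a type and less RNA per cell cannot be told apart.

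Some ribosomal protein paralogs are known to replace their parent in the ribosome, though Rpl7l1 acts in assembly and Rps4l has no annotated coding sequence. The ratio of each tested paralog to its parent was compared between ages in 4 pairs, with an exact two-sided permutation test over all assignments of the 12 samples to ages and adjustment over the 4 pairs. These are ratios of normalized counts, not scaled for length. Sharing of 100-base stretches with other genes also differed within pairs. It was 2.23% for Rpl7l1 and 28.2% for Rpl7, 59.0% for Rpl36al and 83.6% for Rpl36a. For Rpl22l1 it was 50.8% and for Rpl22 0%, for Rps4l 1.66% and for Rps4x 34.8%. Genes overlapping at the same place are included, with 63.1% of exon bases for Rpl36al and 28.8% for Rpl22l1. A ratio of counts therefore need not be one of RNA levels. Rpl7l1 exceeded Rpl7 in counts, with a log2 ratio of 1.34 ± 0.11 in young and 1.30 ± 0.35 in aged samples (exact p = 0.872, adjusted 0.872). Rpl7l1 itself had 3753 to 4303 normalized counts in young samples and 3701 to 4416 in aged samples. Aged 5 stood apart with a ratio of 1.99, since Rpl7 was at 952 there while Rpl7l1 was at 3792.

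Rpl22l1, which is known to be held down by Rpl22, lay below it at both ages, with log2 ratios of -1.78 ± 0.16 and -1.54 ± 0.42 (exact p = 0.236, adjusted 0.453). Rpl36al exceeded Rpl36a in counts, with 2.17 ± 0.28 and 1.97 ± 0.42 (exact p = 0.340, adjusted 0.453). Rps4l, which GENCODE annotates as a transcribed processed pseudogene (chr6:148354656-148355598, plus strand), was counted at 769, 748, 893, 939, 1026 and 909 in young samples 1 to 6 and at 752, 1132, 1167, 1058, 703 and 1280 in aged samples 1 to 6. It shared 1.66% of its 100-base stretches with another gene.

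The log2 ratio of Rps4l to Rps4x was -0.30 ± 0.12 in young and -0.12 ± 0.36 in aged samples (exact p = 0.271, adjusted 0.453). It lay between -0.44 and -0.10 in all young samples, at -0.79 in aged 1 and between -0.19 and 0.24 in the other 5 aged samples. Without aged 1 the difference was 0.32 with an exact permutation adjusted p of 0.0260, and in the 8 samples with a single library it was -0.002. Aged 1 is the aged sample that lies against the difference. The p without it is adjusted over the 4 pairs but not over the samples left out, so it does not count as support. The aged samples spread more widely than the young in each of the 4 ratios, a difference in spread that was not tested. Aged 5 lay above the other aged samples for Rpl7l1 to Rpl7 (1.99 against 1.05 to 1.30). It did so too for Rpl22l1 to Rpl22 (-0.81 against -2.01 to -1.44) and Rpl36al to Rpl36a (2.68 against 1.67 to 2.29).

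Genes that make or control the ribosome were counted from lists. Of all tested genes, 1.27% were called higher and 0.458% lower, so 0 calls in lists this short lie near those shares. The counts below therefore say little about these genes. Of 37 tested initiation factors of 39, 0 were called, with a median log2 difference of 0.007. The smallest p was that of Eif2b4, a subunit of the exchange factor of eIF2, at 1868 ± 119 normalized counts in young and 1630 ± 172 in aged samples (log2 difference -0.20, limma adjusted p = 0.347), and Eif2b2 of the same complex had -0.16. Of 12 elongation and release genes 0 were called (median -0.03). Eef2k, the kinase that stops elongation factor 2, had -0.11, and Eef1e1 had -0.13.

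Of 50 tested assembly genes of 53, 0 were called (median 0.03). Rrp1b, a nucleolar protein, was at 1359 ± 214 and 1719 ± 354 normalized counts (log2 difference 0.33, limma adjusted p = 0.297), and Dkc1, the enzyme that makes pseudouridine in ribosomal RNA, had 0.21. Of 17 tested genes of mTOR and TOP control of 18, 0 were called (median 0.056). Larp1, which binds the TOP motif, was at 3193 ± 351 and 3622 ± 405 (log2 difference 0.18, limma adjusted p = 0.486), and Rps6kb1, an S6 kinase, had 0.18.

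Of 12 tested genes of the ribosomal stress checkpoint of 13, 0 were called (median -0.04). Pmaip1, a p53 target that promotes cell death, was at 175 ± 39.6 and 122 ± 30.7 normalized counts (log2 difference -0.53, limma adjusted p = 0.261), and Cdkn1a, a p53 target that stops the cell cycle, at 403 ± 79.9 and 535 ± 133 (0.40). These 2 p53 targets thus differed in opposite directions, and neither passed the adjusted test. Of 7 tested host genes of small nucleolar RNAs of 11, 0 were called (median 0.009), and Snhg12 and Snhg6 had differences of 0.35 and -0.17.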

How the data were processed

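Microglia RNA was sequenced from 12 samples (16 libraries, SmartSeq v4 and Nextera XT, unstranded). Per the series' design text, in the labels, reads were aligned with STAR, counted with samtools and normalized with DESeq2, and mm10 is the build per the submitters' processing notes. Neither tool versions nor the annotation used is given in the sources used here. The deposited values are normalized counts, a signal per gene, which the authors gave in 1 column per sample. In the 8 single-library columns, every value (100%) lay within 0.1 of a whole read once divided by that column's smallest step, and depth was 11.4 to 47.3 M reads. The other 4 columns (young 2, young 4, aged 3 and aged 6) hold 2 libraries each, and their reads were not recovered.

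Genes with at least 10 normalized counts in 6 of 12 samples (11579) were tested on log2 of the value plus 1 with limma 3.58.1 in R 4.3.3 (trend, two-sided, Benjamini-Hochberg at 0.05 over all of them). Log2 differences understate the change of low genes. edgeR 4.0.16 and DESeq2 1.42.0 were run on recovered reads. The limma and permutation code was tested on simulated data. Samples with the same replicate number were not treated as pairs in the main fit. Coding lengths, positions and shared 100-base stretches came from GENCODE M21, start sites from RefSeq GRCm38.p6. All 87 symbols matched GENCODE, and 79 of the 80 tested genes have a coding length there (92.0% of all tested genes).

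Named genes were the 5 highest and 5 lowest differences, the 3 smallest p-values, the stalk, 5S particle and signalling-linked lists, paralog pairs, the 5 highest and 5 lowest levels per kilobase, untested members, and the 2 smallest p-values of each other list, with exceptions marked; some items are not reported here. The members and lists were chosen with earlier results of these data known.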

Additional observations from a re-analysis of the deposited data

Results flagged for a closer look

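Among 36 quantities checked in each age (72 groups of 6 samples), 3 had a sample far from the others, where chance alone marks about 1 group in 20. All 3 were the value of aged 5 among the aged samples. Rpl10 was at 969 normalized counts there, against 1719 to 2114 in the other 5 aged samples. Rpl29, a large-subunit protein, was at 230 against 474 to 576. Rplp0, the base of the stalk, was at 2606 against 3840 to 4530. The members are not independent of each other, since aged 5 was the lowest of all 12 samples for 64 of the 80 tested.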

How the results depend on the processing

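Under 26 alternative fits, 0 members were called in either direction, and the lowest adjusted p of any member was 0.0927 (limma). The number at an unadjusted p under 0.05 ran from 0 to 44 over the 12 fits that leave out a sample. It was 44 without aged 5, 4 without young 5 and 2 without young 4. It was 25 without aged 5 and aged 6, 1 without a trend and 3 after the coding length correction. Of all tested genes, 12.6% passed without aged 5, 13.4% without aged 5 and aged 6 and 11.9% after the correction. That share is not given here for the fits without young 5, without young 4 and without a trend. The median log2 difference ran from 0.077 to 0.34 when a sample was left out. With the sample number as a replicate block the median was 0.18, 0 members were called and no call changed. The correlations of same-numbered deviations lay between -0.121 and 0.107, and 1 of 6 numbers correlated best with its own pair. Such weak correlations cannot tell whether same-numbered samples shared a preparation. A total of 10 named genes changed sign in some fit. When a sample was left out, the log2 difference ran for Rpl22 from -0.23 to 0.078, Rpl22l1 from -0.00092 to 0.20, Rpl29 from -0.10 to 0.17, Rpl36al from -0.060 to 0.15, Rpl7 from -0.028 to 0.19, Rpl7l1 from -0.025 to 0.026, Rplp0 from -0.035 to 0.12, Rps25 from -0.061 to 0.27 and Rps4x from -0.059 to 0.11. Without aged 5 and aged 6, Rpl22 was at 0.047, Rpl29 at 0.19 and Rps4x at 0.083. With edgeR and DESeq2 on the 8 single-library samples, Rpl29 was at 0.037 and 0.037, Rpl7l1 was at -0.011 and -0.011, Rplp0 was at -0.026 and -0.025, Rps25 was at -0.036 and -0.023, Rps4x was at 0.026 and 0.028. With limma on those 8 samples, Rpl7 was at -0.047, Rpl7l1 was at -0.014, Rplp0 was at -0.056, Rps25 was at -0.041, Rps4l was at -0.0035. Quantile normalization put Rpl36al at -0.0047, equal totals put Rps4x at 0.011, and the coding length correction put Rpl36al at -0.028 and Rps4x at 0.0066. In the 8 samples the age difference of the log2 ratio of Rpl7l1 to Rpl7 was 0.033 and that of the log2 ratio of Rps4l to Rps4x was -0.0020. When a sample was left out, the first ran from -0.17 to 0.013 and the second from 0.11 to 0.32. Without aged 1, the second had an exact permutation adjusted p of 0.0260, adjusted over the 4 pairs but not over the samples left out. The cause of these changes was not tested. Rpl34 and the 7 untested genes have few or 0 counts, and no difference could be assessed for the 7 at this depth and counting.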
